A study of Mus musculus with 8 samples.

Results

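The RXR regions described here lie inside genes and were found in both hearts of wild-type (WT) newborn mice. They were chosen by position: a peak of WT replicate 3 (WT3) belonged to them when it overlapped a peak of WT replicate 4 (WT4) by at least 1 bp, and when its summit lay inside a protein-coding gene and more than 1 kb from either end of every protein-coding gene. This held for 1562 of the 4377 WT3 peaks shared by both WT hearts, or 35.7% (95% Clopper-Pearson interval 34.3 to 37.1%). The other shared peaks had their summit within 1 kb of a gene end (1627) or outside genes (1188). A further 6061 peaks of WT3 met the position rule but had no partner in WT4 and were not counted. Because peaks of the WT hearts chose these regions, the number of regions and their WT values are descriptions without a test. The peaks of the mutant hearts were not used to choose them.

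The regions came from chromatin immunoprecipitation with an RXR antibody and sequencing, done on whole hearts at postnatal day 0. In the mutant, written edKO in the labels, RXRab-/- was cardiomyocyte-specific, so the deletion was not directed at the other cells of the heart, among them endothelial cells, fibroblasts and blood cells. Each genotype had 2 hearts, numbered 3 and 4, namely edKO3 and edKO4 and the WT hearts WT3 and WT4, and each heart was a biological replicate with an immunoprecipitate and an input library. The lists differ greatly in length, with 8 peaks in edKO3, 127 in edKO4, 19129 in WT3 and 4697 in WT4, so edKO3 and WT3 stand apart from the other heart of their genotype. The labels give no other allele, and the promoter that drove the deletion is not named in them.

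RXR stands for the retinoid X receptors, which bind DNA in pairs with other nuclear receptors. Their partners include the peroxisome proliferator-activated receptors (PPAR), the liver X receptors (LXR), the thyroid hormone receptors and the retinoic acid receptors. A pair reads a direct repeat of the hexamer AGGTCA or a close relative of it, and the number of bases between the hexamers, the spacer, differs between the partners. Such sites are found not only at gene starts but also in introns and at alternative starts inside a gene, where another, shorter transcript of the same gene begins.

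Some of the regions lay on RefSeq starts inside the span of a gene, called internal starts here, and the sequences there can be read directly. Whether such a start is the main start of its gene was not looked at. The following are the 250 bases before RefSeq starts (GRCm38.p6, the build of the peaks), each written 5′ to 3′ on the strand of its transcript. Each window of start and flank held the summit of a region described here, and capitals mark the paired hexamers of 1 repeat in each. In Rarb this is a pair of exact half-sites from a set of 4 spellings, and in the others the match to AGGTCA with the fewest mismatches, the nearest to the summit where such matches tied. Rarb is shown because it had the strongest region at an internal start, Rsad1, Eprs and Adcy7 because they carried repeats with a spacer of 4, Dedd and Cd36 because they carried repeats with a spacer of 1, and Acsl1 as a start without a match.
Rarb start, chr14:16575477-16575726, minus strand: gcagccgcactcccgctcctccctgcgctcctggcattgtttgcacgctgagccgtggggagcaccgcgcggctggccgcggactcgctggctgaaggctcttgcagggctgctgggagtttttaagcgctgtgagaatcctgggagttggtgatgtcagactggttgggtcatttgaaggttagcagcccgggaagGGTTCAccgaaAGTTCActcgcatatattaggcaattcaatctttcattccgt
Rsad1 start, chr11:94549208-94549457, minus strand: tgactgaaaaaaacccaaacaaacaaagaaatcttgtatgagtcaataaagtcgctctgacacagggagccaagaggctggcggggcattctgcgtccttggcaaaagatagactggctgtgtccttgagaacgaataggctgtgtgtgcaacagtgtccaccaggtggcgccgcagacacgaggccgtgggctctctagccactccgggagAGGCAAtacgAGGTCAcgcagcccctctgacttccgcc
Eprs start, chr1:185362794-185363043, plus strand: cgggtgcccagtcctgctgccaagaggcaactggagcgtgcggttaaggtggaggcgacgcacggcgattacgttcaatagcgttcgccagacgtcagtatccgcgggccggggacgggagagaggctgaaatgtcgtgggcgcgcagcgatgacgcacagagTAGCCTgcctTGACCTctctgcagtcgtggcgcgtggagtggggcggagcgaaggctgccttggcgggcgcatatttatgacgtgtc
Adcy7 start, chr8:88282742-88282991, plus strand: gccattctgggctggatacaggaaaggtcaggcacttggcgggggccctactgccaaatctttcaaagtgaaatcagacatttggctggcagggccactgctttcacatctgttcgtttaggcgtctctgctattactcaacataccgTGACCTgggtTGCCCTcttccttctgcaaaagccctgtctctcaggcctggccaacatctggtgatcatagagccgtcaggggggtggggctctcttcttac
Dedd start, chr1:171328895-171329144, plus strand: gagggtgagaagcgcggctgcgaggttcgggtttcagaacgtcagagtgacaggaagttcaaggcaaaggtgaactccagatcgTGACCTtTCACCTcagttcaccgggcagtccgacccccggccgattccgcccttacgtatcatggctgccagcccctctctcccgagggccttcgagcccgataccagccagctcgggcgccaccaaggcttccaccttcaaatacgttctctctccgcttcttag
Cd36 start, chr5:17835897-17836146, minus strand: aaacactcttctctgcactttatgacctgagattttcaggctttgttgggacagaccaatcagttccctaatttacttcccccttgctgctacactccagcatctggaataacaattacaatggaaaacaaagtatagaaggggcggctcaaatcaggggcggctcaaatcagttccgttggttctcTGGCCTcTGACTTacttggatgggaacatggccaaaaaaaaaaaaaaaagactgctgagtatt
Acsl1 start, chr8:46490716-46490965, plus strand: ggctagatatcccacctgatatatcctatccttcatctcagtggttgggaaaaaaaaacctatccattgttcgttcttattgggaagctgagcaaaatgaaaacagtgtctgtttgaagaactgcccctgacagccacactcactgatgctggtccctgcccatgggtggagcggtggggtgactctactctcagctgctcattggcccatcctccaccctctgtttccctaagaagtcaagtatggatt

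At Rarb, which encodes a retinoic acid receptor, the summit of WT3 lay 49 bp before an internal start and 145 kb from the nearest end of the gene. The summit stood 4 bp from the centre of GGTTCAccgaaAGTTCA, which lies at chr14:16575513-16575529, has a spacer of 5 bases and differs from paired AGGTCA at 3 bases. Background knowledge places a retinoic acid response element with this spacing before the start of the shorter Rarb transcript. A second repeat with the same spacer, GGGTCAtttgaAGGTTA, left in lower case above, has 2 mismatches to paired AGGTCA and was centred 26 bp from the summit. The Rarb region had no peak in edKO3 and a fold enrichment of 6.14 in edKO4, against 43.5 in WT3 and 25.6 in WT4. Fold enrichment is the authors' ratio of the fragment pileup at a summit to the local background of the same heart.

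Klf10, which encodes a zinc finger transcription factor, had the strongest region by the mean over the WT hearts (chr15:38298792-38300215): its fold enrichment was 3.97 in edKO3 and 12.4 in edKO4, against 50.7 in WT3 and 43.7 in WT4. It was also the single region with a peak in all 4 hearts. Angptl4, whose secreted product inhibits lipoprotein lipase, had no peak in edKO3 and 8.37 in edKO4, against 64.9 in WT3 and 23.6 in WT4 (chr17:33778864-33779951). Its WT3 value was the highest of all 1562, while its WT4 value was far below that of Klf10.

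Cpt1a, the carnitine palmitoyltransferase that admits fatty acids to mitochondria, had 9.10 in edKO4, against 43.7 in WT3 and 39.4 in WT4 (chr19:3324718-3325829). Pfkfb3, whose product makes the activator of phosphofructokinase, had 12.9 in edKO4, against 36.8 in WT3 and 34.1 in WT4 (chr2:11535364-11536307). Both genes thus had close values in the WT hearts, unlike Angptl4. Kdm6b, a histone H3 lysine demethylase gene, had 10.4 in edKO4, against 47.9 in WT3 and 34.7 in WT4 (chr11:69417457-69418678). Dbp, an output transcription factor of the circadian clock, had 8.59 in edKO4, against 51.1 in WT3 and 25.8 in WT4 (chr7:45707481-45708315). The cholesterol exporter gene Abcg1 had 9.09 in edKO4, against 42.5 in WT3 and 26.5 in WT4 (chr17:31073039-31073878). In none of these 5 genes did edKO3 have a peak.

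The rest of the 20 strongest regions ran on without a gap in strength, and some had no peak in either edKO heart. Among those with an edKO4 peak were Cuedc1 (4.54 in edKO4, against 47.1 in WT3 and 22.5 in WT4), the zinc finger gene Klf13 (7.58 in edKO4, against 37.4 in WT3 and 27.9 in WT4) and the chromatin remodeller gene Chd3 (6.57 in edKO4, against 34.3 in WT3 and 29.6 in WT4). The splicing factor gene Rbfox1 (5.29 in edKO4, against 41.3 in WT3 and 21.6 in WT4) and the centriole gene C2cd3 (6.04 in edKO4, against 53.5 in WT3 and 7.74 in WT4) had one too. So did the zinc finger gene Hivep2 (5.73 in edKO4, against 28.5 in WT3 and 28.9 in WT4) and Hspg2, the perlecan gene of the basement membrane (6.82 in edKO4, against 35.4 in WT3 and 20.4 in WT4). In each of these 7 genes the edKO4 value was the lowest of the 3. Without a peak in either edKO heart were Srebf1, which encodes a transcription factor of lipid synthesis (37.9 in WT3 and 25.7 in WT4), and Nol4l (34.99 and 25.4). The same held for Myocd, which encodes the serum response factor cofactor myocardin (32.0 in WT3 and 26.0 in WT4), for the cyclic AMP phosphodiesterase gene Pde7b (38.2 and 17.5) and for Smg6, an endonuclease gene of nonsense-mediated decay (40.6 and 14.9). A host gene is only where the summit lies and need not be the gene that a region acts on.

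**Figure D1:**
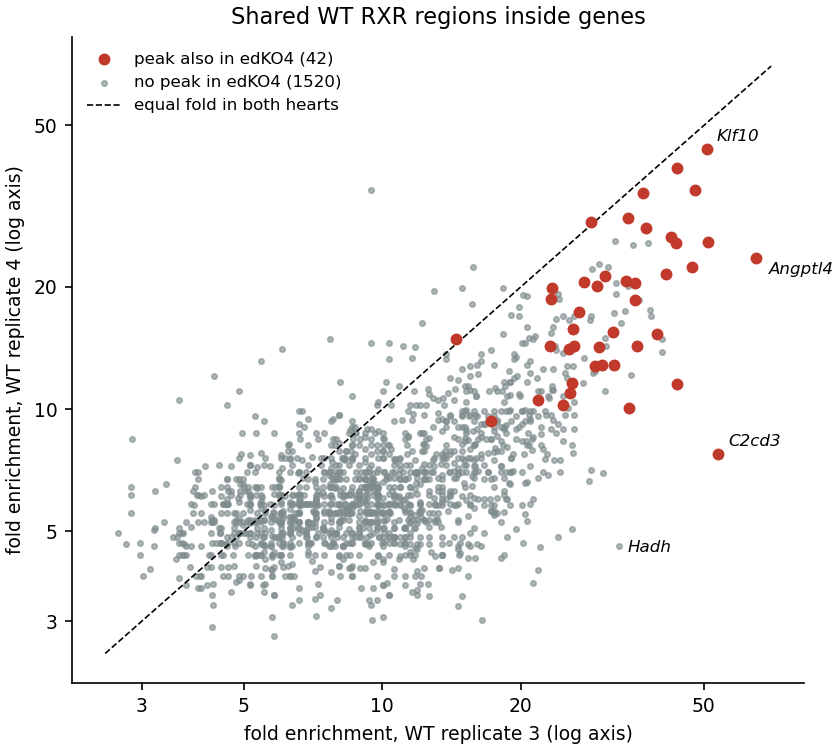
Fold enrichment of the 1562 regions in WT3 (x, log axis) and WT4 (y, log axis); each point is a region, large red points have a peak in edKO4, and the dashed line marks equal values. Most points lie below the line, the 42 red points sit toward the strong end, and Hadh and C2cd3 stand far to the lower right.

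The question put by comparing the genotypes is how much RXR signal depends on RXR alpha and beta of cardiomyocytes. Peaks inside genes were few in both edKO hearts: 1 in edKO3 and 42 in edKO4, against 7623 in WT3 and 1687 in WT4. The edKO hearts averaged 21.5 ± 29.0 such peaks and the WT hearts 4655 ± 4197 (SD, n = 2 each), a ratio of edKO to WT of 0.00462. Every edKO number lay below every WT number, and an exact two-sided permutation test of the numbers gave p = 0.333, the smallest that 2 hearts of each genotype allow. The spread was wide within each genotype, and the ratio was 0.00902 without edKO3, 0.000215 without edKO4, 0.0127 without WT3 and 0.00282 without WT4. Within the edKO lists, peaks inside genes made up 1 of 8 in edKO3 (12.5%, 95% Clopper-Pearson interval 0.316 to 52.7%) and 42 of 127 in edKO4 (33.1%, 24.98 to 42.0%), against 39.9% in WT3 and 35.9% in WT4. In whole tissue a lower signal per cell and fewer cells that carry the signal cannot be told apart.

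Few of the regions kept a peak in an edKO heart, and none of the edKO peaks inside genes fell elsewhere. All 42 edKO4 peaks and the 1 edKO3 peak overlapped a region described here, and so a peak of both WT hearts. Of the 1562 regions 42 had an edKO4 peak, or 2.69% (1.94 to 3.62%), against 2.86% of all 4377 shared peaks. With an edKO3 peak there was 1 region, or 0.0640%, against 0.183% of all shared peaks. The share with an edKO4 peak was 3.13% among shared peaks at gene ends and 2.69% among those outside genes, so the value inside genes was near the background of all shared peaks.

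Having an edKO4 peak went with the strength in WT. All 42 were among the 391 strongest regions by mean WT fold enrichment (10.7%, 7.85 to 14.2%). The regions below these, in groups of 390, 390 and 391 by strength, had 0 in each group, which allows a share of up to 0.941%. Of the 1562 regions 1514 passed the lowest −log10 p of the edKO4 list, 6.03, in both WT hearts, and 1472 of these had no edKO4 peak. For the shorter edKO3 list, with a lowest −log10 p of 9.53, 1130 regions passed in both WT hearts and 1129 of these had no edKO3 peak.

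In the 42 regions the edKO4 value was lower than both WT values in all cases. Fold enrichment ranged from 4.503 to 12.9 in edKO4 with a median of 6.33, against medians of 31.8 in WT3 and 18.0 in WT4 over the same regions. Divided by the mean of the WT hearts, the edKO4 value had a median of 0.263 and ranged from 0.131 at Cuedc1 to 0.434 at the kinase gene Stk10. The edKO4 summits held 21 to 50 fragments, and in 30 of the 40 regions with counting intervals in all 3 hearts the edKO4 interval ended below both WT intervals. These intervals cover counting error only. The regions were chosen by their WT peaks, so the lower edKO4 values are a description and no test between genotypes. The edKO4 and WT3 summits lay a median of 18.5 bp apart and at most 115 bp apart.

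The 10 highest edKO4 values belonged to Pfkfb3, Klf10, Kdm6b, Fto, Cpt1a, Abcg1, Stk10, Dbp, Angptl4 and Gse1, and all but Fto, Stk10 and Gse1 were also among the 20 strongest in WT. Fto, an RNA demethylase gene, had 10.1 in edKO4, against 35.5 in WT3 and 18.6 in WT4. Stk10 had 9.09 in edKO4, against 23.2 in WT3 and 18.7 in WT4. Gse1 had 7.83 in edKO4, against 35.8 in WT3 and 14.3 in WT4. Strength in WT alone did not sort the regions: of the 50 strongest, 26 had an edKO4 peak and 24 had none. Among the 24 without one were Rsad1 (38.5 in WT3 and 16.9 in WT4), the endothelial adhesion gene Pecam1 (33.9 and 20.4), the acetyl-CoA carboxylase gene Acaca (32.1 and 19.2) and the retinoic acid receptor gene Rarg (33.0 and 16.3).

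**Figure D2:**
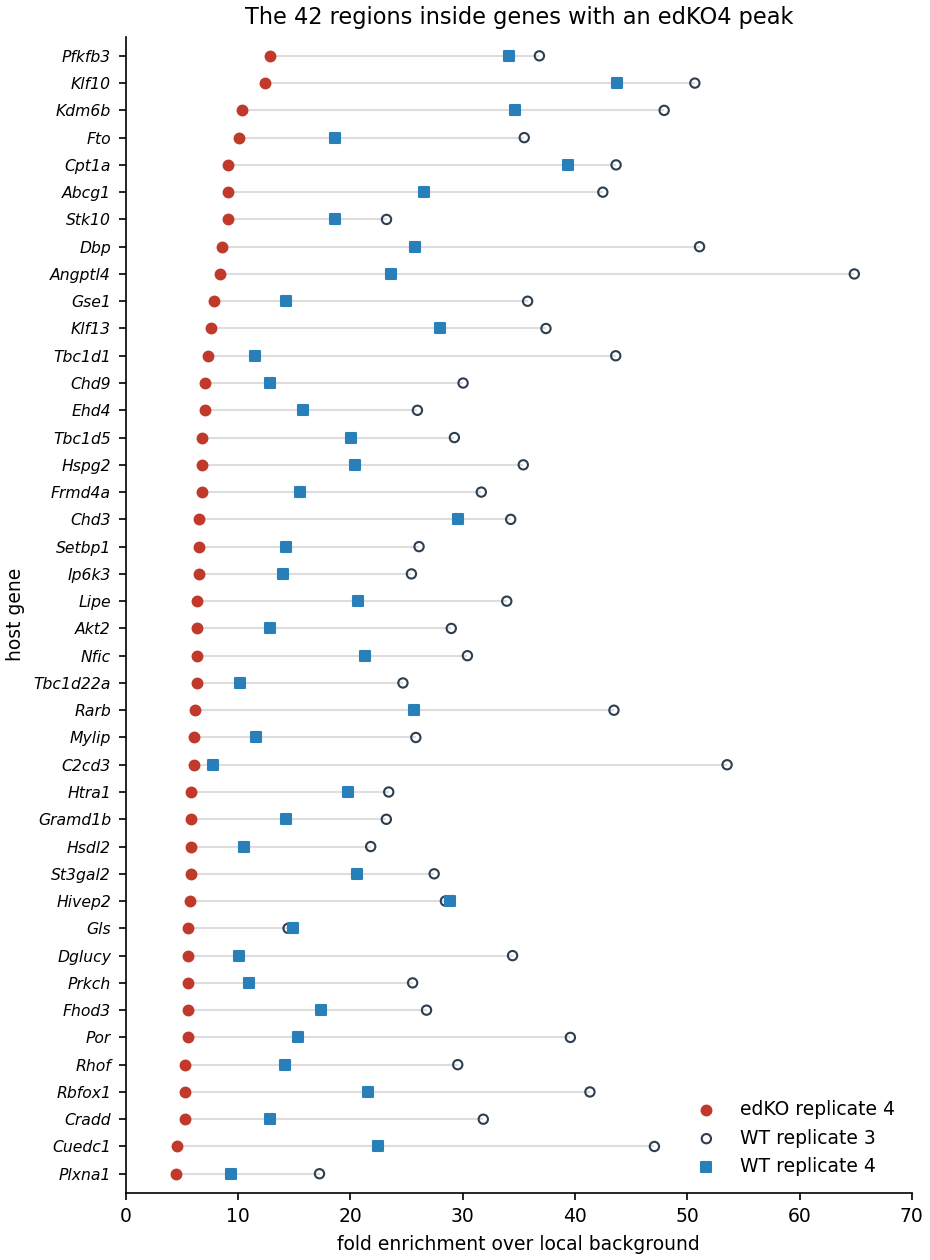
Fold enrichment (x) of the 42 regions inside genes with a peak in edKO4, one row per host gene in descending order of the edKO4 value; filled red circles are edKO4, open circles WT3 and blue squares WT4. Red points lie left of both WT points in every row, between 4.503 and 12.9.

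The WT hearts differed from each other in strength as well as in number. Over the 1562 regions the median fold enrichment was 9.54 in WT3 (range 2.67 to 64.9) and 6.13 in WT4 (2.77 to 43.7). The other shared peaks had medians of 9.35 in WT3 and 6.13 in WT4. WT4 was lower than WT3 in 1293 of 1562 regions (82.8%), and the median ratio of WT4 to WT3 was 0.673. The ranks were related but loosely, with a Spearman correlation of 0.54 across regions, which share their libraries and are not independent replicates. Of the 100 strongest regions of each heart, 59 were the same.

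The spread between the WT hearts differed from region to region. The 95% Poisson intervals of the WT hearts lay apart in 434 regions with WT4 lower and in 9 with WT4 higher. These intervals describe counting in 1 library per heart and are no test between animals, and they treat fragments as independent, although no source used here says whether duplicates were removed. The largest shortfall in WT4 was at Hadh, a dehydrogenase gene of beta-oxidation, with 32.7 in WT3 (27.0 to 39.3, from 113 fragments) and 4.60 in WT4 (2.83 to 7.13, from 18 fragments). C2cd3 followed, with 53.5 in WT3 (46.4 to 61.4) and 7.74 in WT4 (5.87 to 10.0). Among the 9 in the other direction were Zbtb16, a zinc finger factor gene (4.31 in WT3 and 12.1 in WT4), a region of Klf13 (5.45 and 13.1) and a region of Cuedc1 (7.69 and 14.9). A second Kdm6b region (9.47 in WT3) stood out too, but it shares its WT4 peak (34.7) with the stronger Kdm6b region, as 16 regions do with a neighbour. The positions were steadier than the strengths: the summits of the hearts lay a median of 37 bp apart and within 100 bp in 84.1% of regions, from 95.4% of the 391 strongest to 71.4% of the 391 weakest.

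The fragments behind these values were recovered from the peaks' own statistics. The fragments at a summit came out whole within 0.02 for 99.9% of the WT3 values of these regions and for 100% in the other lists. They ranged from 12 to 201 in WT3 (median 37) and from 12 to 149 in WT4 (median 23). The WT3 range leaves out Klf10 and Angptl4, the strongest regions by the mean, for which no WT3 count was solved. For each list the local background found most often among the candidate solutions was taken as the lowest allowed. This was 3.11 fragments in edKO3, from 8 peaks, and 2.96 in edKO4, against 2.48 in WT3 and 2.32 in WT4. Both edKO values were the higher ones, and the total depth of each library was not analysed here. Peak lists hold no transcript or protein, so they do not measure the loss of Rxra and Rxrb.

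Inside genes the regions were spread over long stretches of DNA. The parts of genes more than 1 kb from every gene end make up 988 Mb or 36.3% of the annotated span, and held 1.58 regions per Mb. The stretches within 1 kb of a gene end held 20.5 shared peaks per Mb, and the stretches outside genes 0.718 per Mb. The median distance from a summit to the nearest end of its host gene was 14.7 kb (quartiles 5.09 and 39.2 kb), with 384 regions (24.6%) within 5 kb and 309 (19.8%) beyond 50 kb. The 3 farthest lay in Arhgap26, a GTPase-activating protein gene, at 383, 372 and 371 kb from the nearest end. Their fold enrichments were 16.4, 5.75 and 5.85 in WT3 and 7.74, 6.42 and 6.42 in WT4. The last pair share a WT4 peak.

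Along a gene the regions were denser near its start. A RefSeq start window gave the strand of the host gene for 1224 regions, and these lay a median of 41.4% of the way along the gene. With each gene divided into 10 equal parts, part 1 at the start held 180 of them (14.7%) with 7.89% of the interior DNA of these genes, and part 2 held 165 (13.5%) with 10.3%. Part 10 at the end held 67 (5.47%) with 7.87% of the DNA. Parts 1 to 5 together held 713 (58.3%).

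**Figure D3:**
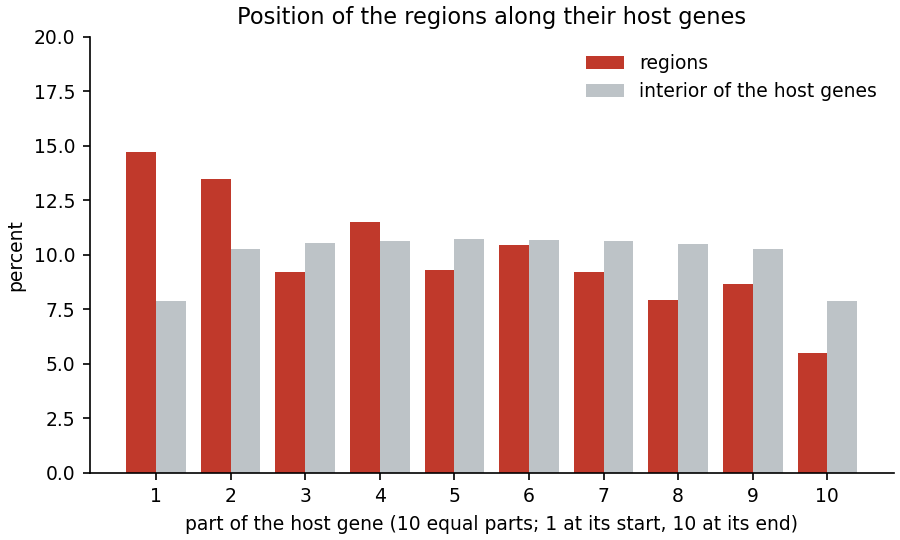
Percent of the 1224 regions with a known strand (red) and percent of the interior DNA of their host genes (grey) in each of 10 equal parts of the gene (x, 1 at the start, 10 at the end). Parts 1 and 2 hold 14.7% and 13.5% of the regions, more than their part of the DNA, and part 10 holds 5.47%, less than its part.

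Just inside the 1 kb limit stood regions in D5Ertd579e (1002 bp from a gene end, 13.0 in WT3 and 19.6 in WT4), BC034090 (1003 bp, 11.2 and 5.65) and Ktn1 (1007 bp, 8.30 and 5.84). Just outside it stood those at Colgalt1 (999 bp, 9.01 in WT3 and 6.55 in WT4), Slc16a13 (995 bp, 3.62 and 5.55) and Mcl1 (985 bp, 4.63 and 2.91). Values on both sides of the limit overlapped.

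A host gene usually had a single region, but some had a series. The 1562 regions lay in 1158 of 19252 protein-coding genes with an interior, or 6.01%; 904 genes had 1 region, 254 had 2 or more and 19 had 5 or more. Host genes were long, with a median interior of 63.9 kb against 19.3 kb over all genes, and 25 regions lay in 2 or more genes at once. Cuedc1 and Tns1 had 10 regions each. In Cuedc1 they spanned 67.4 kb, ranged from 4.59 to 47.1 in WT3 and from 5.08 to 22.5 in WT4, and 1 had an edKO4 peak. In Tns1, which encodes the focal adhesion protein tensin, they spanned 168 kb and ranged from 5.45 to 15.1 in WT3 and from 4.20 to 9.92 in WT4, with no edKO4 peak. Apart from the strongest one, the Cuedc1 regions had 4.59 to 13.2 in WT3 and 5.08 to 14.9 in WT4, which overlaps the values in Tns1.

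Vps13d, a lipid transfer protein gene, had 8 regions, 3 of them also inside the overlapping retinaldehyde reductase gene Dhrs3, from 6.60 to 30.4 in WT3 and from 4.65 to 13.1 in WT4. Gse1 had 7 regions over 299 kb, from 5.54 to 35.8 in WT3 and from 4.03 to 14.3 in WT4, with 1 edKO4 peak. Hspg2 had 7 within 26.6 kb, from 2.85 to 35.4 in WT3 and from 6.42 to 20.4 in WT4, with 1 edKO4 peak. In each of Cuedc1, Gse1 and Hspg2 the edKO4 peak was at the region with the highest WT3 value. Regions with another of their kind within 5 kb numbered 217, or 13.9%.

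Chromosomes differed in density. Chromosome 11 had the most, 156 regions or 2.95 per Mb of gene interior, and chromosome 3 the lowest density of the autosomes, 1.11 per Mb. Chromosome X had 6 regions, or 0.137 per Mb, against 1.65 per Mb over all autosomes. The 6 lay in Otud5, Bcor, Fgf13, 5430427O19Rik, Brwd3 and Tmem164, from 5.17 to 18.1 in WT3 and from 5.08 to 9.05 in WT4. The sex of the hearts is not given in the labels, and the part that copy number of chromosome X has in this density was not tested.

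Internal starts held a small part of the regions but far more than their part of the DNA. RefSeq start windows of 300 bp, 250 before and 50 after a start, covered 0.194% of the interior DNA of 19 of the 20 chromosomes, and held the summits of 121 of 1503 regions there, or 8.05% (6.72 to 9.54%). Of the 5828 WT3 peaks inside genes without a WT4 partner, 301 had their summit in such a window, or 5.16% (4.61 to 5.76%). In 110 of the 121 the start belonged to the host gene and in 11 to another gene, and 94 summits lay before the start. Strength was similar: the medians were 9.47 in WT3 and 5.99 in WT4 at a start and 9.54 and 6.13 away from one. An edKO4 peak was present in 2 of the 121 (1.65%), at Rarb and Tbc1d5, and in 38 of the 1382 away from a start (2.75%).

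After Rarb, the strongest regions at internal starts were those of Srebf1, Rsad1 and Eprs. Srebf1 had its summit 175 bp before a start, with 37.9 in WT3 and 25.7 in WT4 (chr11:60210334-60211025). Rsad1 had 38.5 in WT3 and 16.9 in WT4, with the summit 6 bp before the start. Eprs, the glutamyl-prolyl tRNA synthetase gene, had 40.6 in WT3 and 13.9 in WT4, 87 bp before the start. These 3 had no peak in either edKO heart. Tbc1d5, whose product acts in endosome traffic, had 6.82 in edKO4, against 29.3 in WT3 and 20.1 in WT4, 47 bp before a start.

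Genes of fatty acid use also had regions at internal starts. Acsl1, which encodes the acyl-CoA synthetase that activates long-chain fatty acids, had 28.4 in WT3 and 7.10 in WT4, with the summit 5 bp after a start. Cd36, the fatty acid translocase gene, had 20.5 in WT3 and 8.36 in WT4, 9 bp before a start. Eci2, an enoyl-CoA isomerase gene of beta-oxidation, had 27.3 in WT3 and 11.6 in WT4, 221 bp before a start. None of the 3 had a peak in an edKO heart, and in all 3 WT4 was below WT3. Inside Esrrg, which encodes an orphan receptor of energy metabolism, a region with 14.9 in WT3 and 7.01 in WT4 had its summit 37 bp before the start of another gene, Gm36388.

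Direct repeats were searched for in these start windows, and which spacer led depended on the mismatches allowed. The letters searched were AGGTCA followed by 0 to 5 free bases and AGGTCA again, on both strands, with at most 2 mismatches in the 12 fixed bases; matches with different spacers can overlap. The form with a spacer of 4, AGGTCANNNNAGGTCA, was in 13 of the 121 windows, or 10.7% (5.85 to 17.7%), against 3.02% of all 32851 RefSeq start windows. Background knowledge ties this spacing to LXR and thyroid hormone receptor pairs. The form without a spacer was in 9 windows (7.44%, 3.46 to 13.7%), against 3.05%. The other spacers lay closer to the share of all start windows: 4 windows (3.31%) against 3.86% for a spacer of 1, the spacing known for PPAR pairs, 1 (0.826%) against 2.99% for 2, 4 (3.31%) against 3.06% for 3, and 4 (3.31%) against 2.79% for 5. With at most 1 mismatch the order was different. A spacer of 1 then led with 3 windows (2.48%, 0.514 to 7.07%) against 0.554%, followed by no spacer with 2 (1.65%) against 0.323%. A spacer of 4 was in 1 window (0.826%, 0.0209 to 4.52%) against 0.250%, as were spacers of 2 (against 0.253%) and 3 (against 0.234%), and a spacer of 5 in 0 against 0.262%.

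Over all spacers 29 windows held a match (23.97%, 16.7 to 32.6%), against 15.8% of all start windows and 17.0% of those inside genes without such a region. With at most 1 mismatch the numbers were 8 (6.61%) against 1.80%, and with none 0 against 0.0852%. Exact tandem pairs of half-sites from a set of 4 spellings, which adds GGGTCA or AGTTCA or GGTTCA to the hexamer above and was chosen after seeing the data, were in 4 windows (3.31%) against 0.907%. The windows with a summit were richer in G and C, with a median of 65.7% against 52.7% over all start windows, and the part of base composition in these shares was not tested. These windows hold 121 regions, so the shares say nothing of the other regions, whose sequence was not used here.

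**Figure D4:**
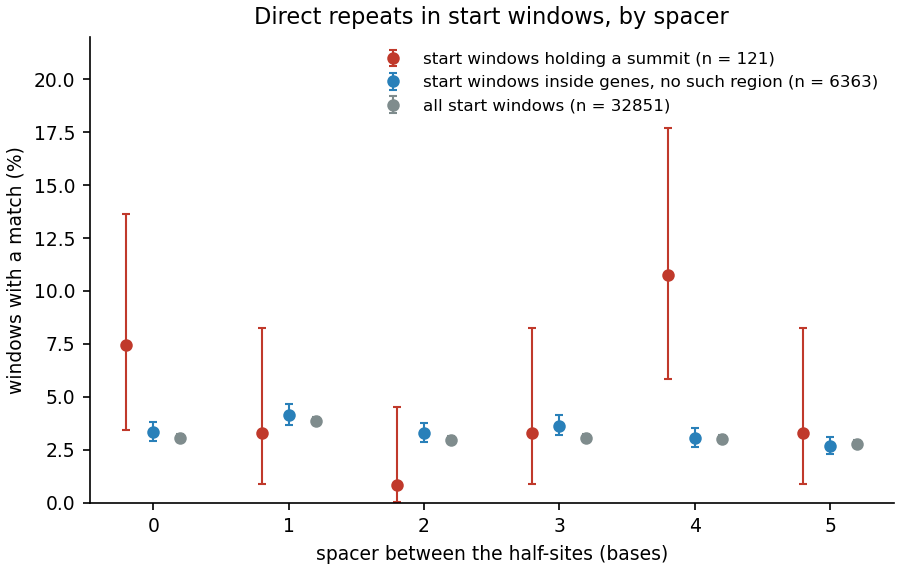
Percent of RefSeq start windows (y) with a match of at most 2 mismatches to the direct repeat, by spacer in bases (x), for the 121 windows that hold a summit (red), the 6363 windows inside genes without such a region (blue) and all 32851 windows (grey); bars are 95% Clopper-Pearson intervals. The red point at a spacer of 4, 10.7%, is the highest, and the red intervals at 1, 2, 3 and 5 include the grey points.

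In the sequences printed above, Rsad1 carried AGGCAAtacgAGGTCA centred 24 bp from its summit (chr11:94549230-94549245). Eprs carried AGGTCAaggcAGGCTA 8 bp from its summit (chr1:185362957-185362972), and Adcy7, an adenylate cyclase gene, carried AGGGCAacccAGGTCA 25 bp from its summit (chr8:88282890-88282905). Dedd carried AGGTGAaAGGTCA with a spacer of 1, 16 bp from its summit, and Cd36 carried AAGTCAgAGGCCA 48 bp from its summit. In Eprs, Adcy7, Dedd and Cd36 the repeat reads in this direction on the strand opposite to the transcript. The Adcy7 region had 20.7 in WT3 and 6.62 in WT4, and the Dedd region 18.7 in WT3 and 8.06 in WT4. A match is a string of letters and was not tested for binding.

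The host genes were then read by role, from 21 lists that hold 502 genes with an interior. Of these 121 hosted a region, and each list is set beside the 6.01% of all genes that did. The rule used these WT peaks, and genes of a list differ in length from genes at large, so the shares are descriptions. The density per Mb of interior stands beside them, against 1.58 over all genes. The lists were chosen with earlier results of these data known, so their shares cannot show that a role is favoured. An edKO4 peak was present at 2.69% of all regions, and no list held more than 16 regions, so a list with no edKO4 peak is near that share.

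Nuclear receptor genes came first. Of 35 nuclear receptor genes 10 hosted a region (28.6%, 14.6 to 46.3%), with 3.66 regions per Mb. The retinoic acid receptor genes were all hosts: Rarb with 2 regions, the stronger as given above, Rarg with 1 region (33.0 in WT3 and 16.3 in WT4) and Rara with 4, from 5.96 to 12.6 in WT3 and from 3.87 to 6.42 in WT4. Of these regions only the stronger one of Rarb had an edKO4 peak. Rxra itself hosted 1 region, 17.2 kb from the nearest gene end, with no peak in either edKO heart, 12.2 in WT3 and 5.65 in WT4 (chr2:27745934-27746428). The other retinoid X receptor genes, Rxrb and Rxrg, hosted none. Nr1d1, the Rev-erb alpha repressor gene of the clock, had 2 regions with 16.1 and 16.9 in WT3, which share a WT4 peak of 9.63.

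Genes of retinoid metabolism and signalling followed. Of these 14 genes 5 hosted a region (35.7%, 12.8 to 64.9%), at 19.0 regions per Mb, the highest density of the lists. Tgm2, a transglutaminase gene induced by retinoic acid, held 5 of the 11 regions of this list in 28.0 kb of interior. The density of the list thus leaned on this gene. The strongest Tgm2 region had 24.1 in WT3 and 19.2 in WT4. Dhrs3, which turns retinaldehyde back to retinol, had 30.1 in WT3 and 6.97 in WT4. Cyp26b1, an enzyme gene of retinoic acid breakdown, had 15.9 in WT3 and 9.68 in WT4. None of these had a peak in an edKO heart.

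Coregulators of the receptors hosted regions in 7 of 23 cases (30.4%, 13.2 to 52.9%), at 5.49 per Mb. The coactivator gene Ncoa3 had 30.5 in WT3 and 15.0 in WT4. Ppargc1a, which encodes the mitochondrial coactivator PGC-1 alpha, had 3 regions spread over 353 kb, the strongest with 15.7 in WT3 and 18.1 in WT4, one of the regions in which WT4 was the higher heart. The corepressor gene Nrip1 was a host too, with 21.0 in WT3 and 7.26 in WT4. None of the coregulator genes had an edKO peak.

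Fatty acid genes were frequent hosts and had strong regions. Of 26 genes of fatty acid oxidation 10 hosted a region (38.5%, 20.2 to 59.4%), at 17.1 per Mb, with medians of 15.4 in WT3 and 6.61 in WT4, and Cpt1a was the single one with an edKO4 peak. Beside Cpt1a, Eci2, Hadh and Acsl1, the list held Hadha, a trifunctional protein gene (23.0 in WT3 and 10.6 in WT4), and Cpt2, the carnitine palmitoyltransferase gene of the inner membrane (16.2 and 8.46). Of 30 genes of lipid uptake, storage and synthesis 11 hosted a region (36.7%, 19.9 to 56.1%), at 9.86 per Mb, with edKO4 peaks in 2, Angptl4 and Lipe. Lipe, the hormone-sensitive lipase gene, had 6.34 in edKO4, against 33.9 in WT3 and 20.7 in WT4, and Acaca had no edKO peak. The median of this list was 20.1 in WT3 and 8.53 in WT4.

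Of 14 genes of cholesterol handling and LXR response 4 hosted a region (28.6%, 8.39 to 58.1%), at 14.0 per Mb. Beside Abcg1, the cholesterol exporter gene Abca1 had no edKO peak, 31.0 in WT3 and 22.5 in WT4, with the WT3 summit 1.13 kb from the gene end. The Abca1 summit of WT4 lay 1079 bp from that of WT3, so the values of the WT hearts belong to different positions. Mylip, which encodes a ligase that degrades the LDL receptor, had 6.06 in edKO4, against 25.8 in WT3 and 11.6 in WT4. Srebf2, a transcription factor gene of cholesterol synthesis, had 7.46 in WT3 and 7.59 in WT4. Of the 6 regions of this list 2 had an edKO4 peak, against 2.69% of all regions. Both of these, at Abcg1 and Mylip, were among the 391 strongest regions, of which 10.7% had an edKO4 peak. Whether this list differs from other regions of like strength was not tested.

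Genes of the mitochondrial machinery downstream of fatty acid oxidation were read next. Of 34 genes of oxidative phosphorylation 1 did (2.94%, 0.0744 to 15.3%), at 1.72 per Mb: Cox5a, a cytochrome c oxidase gene, with 18.3 in WT3 and 15.3 in WT4. Of 29 genes of the tricarboxylic acid cycle and pyruvate oxidation 2 did (6.90%, 0.846 to 22.8%), at 1.74 per Mb, namely Mdh1 (23.5 in WT3 and 11.2 in WT4) and Ogdh (8.21 and 7.01). These shares and densities lay near those of all genes. The oxidative phosphorylation genes had a median interior of 8.65 kb, against 19.3 kb over all genes. Of 30 genes of glycolysis and glucose uptake 4 hosted a region (13.3%, 3.76 to 30.7%), at 5.18 per Mb, led by Pfkfb3 and by Gyg, the primer protein gene of glycogen (14.4 in WT3 and 9.34 in WT4).

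Clock genes had the highest share of hosts. Of 19 genes 10 hosted a region (52.6%, 28.9 to 75.6%), at 16.7 per Mb, and Dbp was the single one with an edKO4 peak. The other transcription factors of the Dbp family, Tef (18.9 in WT3 and 10.8 in WT4) and Hlf (15.5 and 6.13), were hosts as well. Clock, of the activating arm, had 15.5 in WT3 and 9.68 in WT4. The repressor genes Per1 and Per2 had 2 regions each, from 8.73 to 10.6 and from 9.01 to 9.47 in WT3, and from 5.81 to 7.55 and from 7.01 to 7.74 in WT4. Both arms of the clock thus held regions of moderate strength, and Dbp stood above them.

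Sarcomere genes hosted regions in 12 of 31 cases (38.7%, 21.9 to 57.8%), at 8.15 per Mb. Ldb3, a Z-disc protein gene, had 3 regions, led by one with 16.0 in WT3 and 10.8 in WT4. Ttn, the titin gene, had 16.2 in WT3 and 7.05 in WT4, and the ventricular myosin light chain gene Myl2 had 3 regions from 5.75 to 10.9 in WT3 and from 4.38 to 8.17 in WT4. Of 32 genes of calcium handling and excitability 10 were hosts (31.2%, 16.1 to 50.0%), at 2.74 per Mb. Cacna1g, a T-type calcium channel gene, led with 24.4 in WT3 and 7.02 in WT4, and the junctophilin gene Jph2 had 4 regions from 4.31 to 18.9 in WT3 and from 5.33 to 9.95 in WT4. None of the hosts in either list had an edKO peak.

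Among regulators, 7 of 27 cardiac transcription factor genes hosted a region (25.9%, 11.1 to 46.3%), at 4.63 per Mb. Behind Myocd came Nfia with 5 regions (23.0 in WT3 and 6.88 in WT4 at the strongest), Prdm16 (19.8 and 9.05) and Nfib (18.7 and 4.84), none with an edKO peak. Of 22 Klf and immediate early genes 4 did (18.2%, 5.19 to 40.3%), at 11.0 per Mb, namely Klf10, Klf13, Klf15 with 2 regions (12.6 in WT3 and 3.46 in WT4 at the stronger) and Jun (6.76 and 9.05). Insulin and growth factor signalling had 9 of 37 genes (24.3%, 11.8 to 41.2%), at 1.93 per Mb. Akt2, a kinase gene of insulin signalling, led that list with 6.32 in edKO4, against 29.0 in WT3 and 12.8 in WT4, ahead of Smad3 (20.4 in WT3 and 14.5 in WT4). Cell cycle genes had 2 of 26 (7.69%, 0.946 to 25.1%), at 2.37 per Mb, E2f3 (6.89 in WT3 and 4.67 in WT4) and Ccnd3 (5.54 and 4.63).

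The hearts also hold cells in which the deletion does not act, and markers of such cells were looked at as host genes. Of 18 genes listed as endothelial markers 6 hosted a region (33.3%, 13.3 to 59.0%), at 6.11 per Mb. Pecam1 led with 3 regions, ahead of the endoglin gene Eng (14.6 in WT3 and 8.46 in WT4). Of the 9 regions of this list 0 had a peak in an edKO heart. Of the planned endothelial markers, which also named Cdh5, Kdr, Tek, Tie1, Flt1, Nos3, Emcn and Vwf, only Pecam1 and Eng were hosts in this list. The other hosts, Ets1, Erg, Fli1 and Egfl7, were not among the planned endothelial markers, and 12 genes of the list hosted none. Fibroblast and epicardial markers had 2 of 14 (14.3%, 1.78 to 42.8%), at 4.90 per Mb, Pdgfra (15.1 in WT3 and 8.32 in WT4) and Loxl1 (8.30 and 5.84). Of 10 smooth muscle and pericyte markers Abcc9 was a host (24.7 in WT3 and 16.9 in WT4), at 2.55 per Mb, and of 11 blood and macrophage markers 0 were, which leaves an upper bound of 28.5%. Loxl1 and Abcc9 were not among the markers planned for their cell types, so they need not mark cells outside the deletion. Matrix genes had 5 of 26 (19.2%, 6.55 to 39.4%), at 5.50 per Mb, with Hspg2 the single one to have an edKO4 peak, ahead of Col4a2 (23.3 in WT3 and 8.95 in WT4 at the strongest of 4 regions). A host gene's cell type does not show in which cells the region was bound, and that was not tested.

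**Figure D5:**
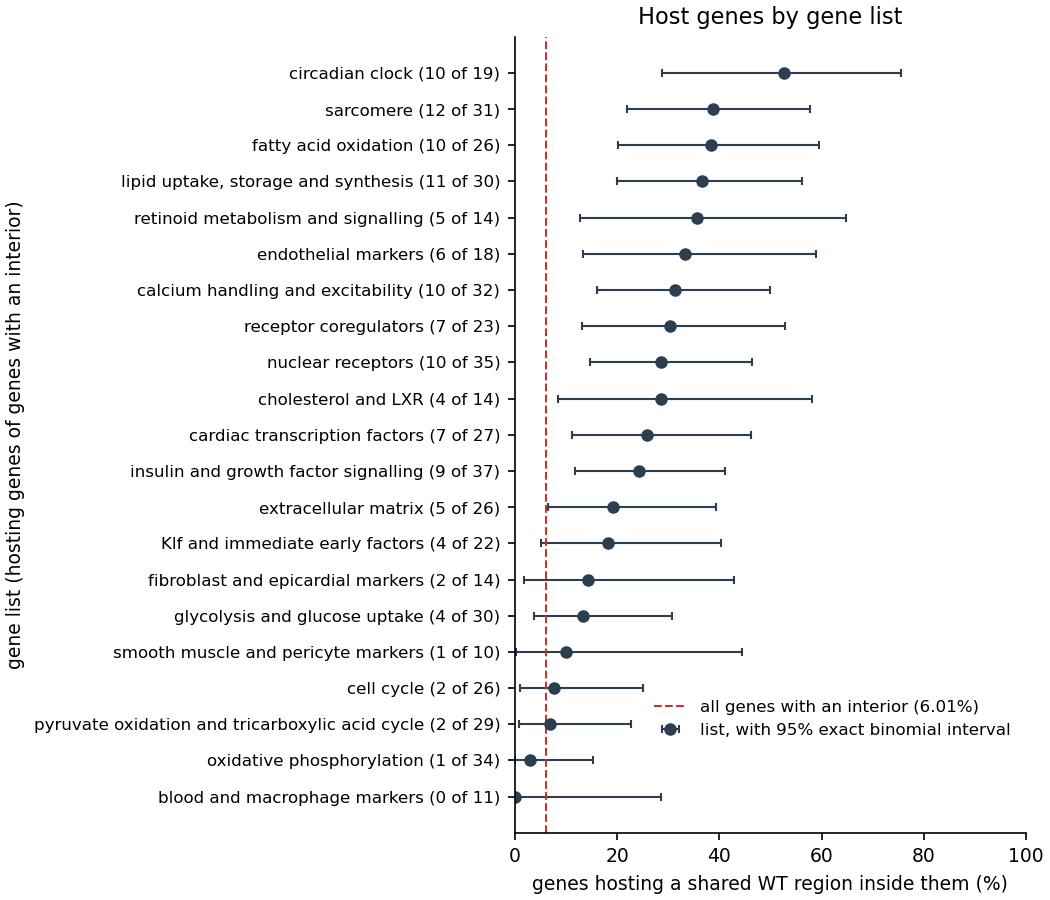
Percent of the genes of each list that host a region (x), with 95% Clopper-Pearson intervals, in descending order of the percent; the dashed line marks the 6.01% of all genes with an interior. Clock genes stand at the top with 52.6%, and oxidative phosphorylation (2.94%) and blood and macrophage markers (0 of 11) at the bottom.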

How the data were processed

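RXR immunoprecipitates and inputs of 2 edKO and 2 WT hearts were sequenced, at a depth that the labels give only as an average. Per the submitters' processing notes the authors used cutadapt, BWA, SAMtools and MACS3 on mm10 (GRCm38); no version or setting is named there. The authors deposited 1 peak list per heart, so peaks were not pooled. Each list gives the fold enrichment, a ratio to the local background, the −log10 p and −log10 q of each peak, and a score as deposited by the authors that was not used. Start, end and summit positions in the deposited lists are other values, in bp, and are printed 1-based.

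Genes came from a RefSeq table of GRCm38.p6, with 21883 protein-coding genes, of which 2631 had no interior. Start windows came from RefSeq promoters of the same assembly, for 19 of the 20 chromosomes. Fragments were solved from the fold enrichment and the Poisson −log10 p and checked on peaks simulated under the same Poisson model, with 100% recovered. The simulated counts did not go as low as 12 fragments, the lowest count of the regions in WT3 and in WT4. Intervals of shares are 95% Clopper-Pearson. An exact permutation test over hearts compared peak numbers, unpaired, since the labels do not tie heart numbers to a litter or day. Named regions were the 20 strongest by mean WT fold enrichment, the one with an edKO3 peak, the 10 with the highest edKO4 value, the 5 genes with the most regions, up to 4 genes per list, the 3 farthest and those next to the 1 kb limit. Members and lists were chosen with earlier results of these data known, and motifs at internal starts, Rxra, chromosome X and other single genes were picked after their values were seen. Of 520 list entries, 519 matched by symbol and 1 by an older symbol. Python 3.11.15, pandas 2.3.3 and SciPy 1.17.1 were used.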

Additional observations from a re-analysis of the deposited data

How the results depend on the processing

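Of 202 values under alternatives, 142 stayed within their tolerance, 60 moved and 0 reversed. The values of the 20 strongest regions without 1 WT heart could not leave their tolerance, and the replicate block was counted as unmoved by rule. A reversal could be recorded only for the ratio of edKO to WT peaks. With −log10 q of at least 10 in both WT hearts, 689 regions remained in place of 1562, with a median mean fold enrichment of 11.5 in place of 7.90, hosts among 3.03% of genes and 75 list genes in place of 121. With −log10 p of at least 10 the host share was 4.55% and edKO3 had 0 peaks. With gene ends at 500 bp, 2 kb and 5 kb the share of shared peaks inside genes was 39.8, 31.6 and 26.6%, and the median distance to a gene end 11.8, 18.6 and 23.7 kb. At 500 bp hosts were 6.49% of genes, and at 2 kb and 5 kb edKO3 had 0. With all RefSeq gene types the share was 38.0%, the distance 11.7 kb and hosts 5.65%. Leaving out 1 WT heart, so that all inside-gene peaks of the other heart counted, gave 1687 to 7623 regions, shares of 35.9 to 39.9%, median fold enrichments of 5.45 to 6.002, host shares of 6.39 to 19.5%, distances of 14.9 to 17.3 kb and 255 list genes without WT4. The ratio of edKO to WT peaks ran from 0.000215 to 0.0127 when 1 heart was left out. The motif share at internal starts was 23.97% with 2 mismatches, 6.61% with 1, 0 with none and 3.31% with 4 half-site spellings, the last chosen after seeing the data. With heart number as a replicate block the ratio was 0.00462 and the exact permutation p 0.5, in place of 0.333, and neither can pass a threshold. The causes were not tested. The planned motif search around every summit was not run, since no genome was used here, and start windows took its place. The edKO3 list, with 8 peaks, limits what can be said of single regions there.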
